A study of Mus musculus with 6 samples.

Results

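The 10 genes described here encode the enzymes of lower glycolysis, from aldolase to lactate dehydrogenase, and the carrier that exports lactate. They are Aldoa, Aldoc, Tpi1, Pgk1, Pgam1, Eno1, Eno2, Pkm, Ldha and Slc16a3, and every probe set that the platform annotation maps to a single gene of this list was taken. 9 of the 10 genes had such a probe set, 17 probe sets in all of 22626 tested. Eno1 had none and was not analysed here. The values come from 6 Affymetrix mouse arrays, each loaded with labelled RNA from cultured PPP3R1 cells. 3 arrays came from PPP3R1 cells starved for 6 h and 3 from PPP3R1 cells kept in normal medium, titled CTL and called control here. PPP3R1 is also the symbol of the regulatory subunit of the phosphatase calcineurin. No source used here says what was done to that gene, whether the line is a clone or what the starvation medium held. The labels conflict on the control: by the titles and design it is PPP3R1 cells, by the protocols for growth and treatment it is wild-type MEFs (mouse embryonic fibroblasts). Arrays were grouped by title, and this bears on every difference below.

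Glycolysis turns glucose into pyruvate in the cytosol. In its lower part aldolase splits a phosphorylated sugar into triose phosphates, which are then oxidised and rearranged to pyruvate with a gain of ATP. Lactate dehydrogenase reduces pyruvate to lactate and so restores the oxidised coenzyme that the pathway needs, and monocarboxylate carriers move lactate across the plasma membrane. Cultured fibroblasts run this route at a high rate even with oxygen present. Many of its genes are textbook targets of the hypoxia-inducible factor HIF1 and of MYC, which bind short motifs in promoters.

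In starved cells 7 of the 9 measured genes fell, 0 rose, and Eno2 and Pkm did not pass the test. The falls were unequal. Aldoc had 3.63-fold less signal in starved cells on its responding probe set, Pgam1 2.00-fold, Slc16a3 1.87-fold, Ldha 1.52-fold, Aldoa 1.49-fold, Pgk1 1.46-fold and Tpi1 1.42-fold, each on the probe set of the highest mean. The folds of Aldoc and Slc16a3 are uncertain in size and rank, since both genes lay near background in starved cells. Values are log2 levels made with RMA. A change is starved minus control on that scale with the standard error (SE) of limma, a linear model fitted across all probe sets, and a gene passed at a Benjamini-Hochberg adjusted p under 0.05. Of the 17 probe sets 14 fell and 0 rose. Much of the array differed between starved and control cells: 19.2% of all probe sets were called lower and 20.3% higher, 39.5% in all. Counted over genes by the probe set of the highest mean, 20.1% of 12393 were called lower and 20.8% higher, 40.8% in all. The median change was -0.57 over the 9 genes and -0.01 over all genes, and 6.63% of all genes fell by at least 0.5. The members were chosen with earlier results of these data known, so these counts describe the list and test nothing about it.

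Promoter sequences are shown because the members that fell did so by unlike amounts, while Pkm, a gene of the same pathway, did not pass. RefSeq (build GRCm38.p6) held promoter windows for 10 of the 10 genes, 17 windows in all, since some genes have several starts. The 250 bases before each start were searched on both strands for the core motif of HIF1, spelled ACGTG or GCGTG. The first spelling lies inside the E-box CACGTG, which MYC binds. Each sequence runs 5′ to 3′ along the gene and ends at the base before the first listed start; capitals mark a core motif on either strand.
Pgam1, chr19:41911621-41911870, plus strand: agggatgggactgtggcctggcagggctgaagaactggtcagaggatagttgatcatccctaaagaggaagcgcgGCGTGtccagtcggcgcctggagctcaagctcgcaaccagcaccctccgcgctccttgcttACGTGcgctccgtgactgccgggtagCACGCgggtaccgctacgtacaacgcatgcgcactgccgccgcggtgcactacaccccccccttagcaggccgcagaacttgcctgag
Pgk1, chrX:106186850-106187099, plus strand: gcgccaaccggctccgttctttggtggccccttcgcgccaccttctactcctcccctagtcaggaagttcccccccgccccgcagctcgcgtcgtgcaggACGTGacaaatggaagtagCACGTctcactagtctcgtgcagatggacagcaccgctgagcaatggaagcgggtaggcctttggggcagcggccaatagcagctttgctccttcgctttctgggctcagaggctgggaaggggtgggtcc
Ldha, chr7:46845554-46845803, plus strand: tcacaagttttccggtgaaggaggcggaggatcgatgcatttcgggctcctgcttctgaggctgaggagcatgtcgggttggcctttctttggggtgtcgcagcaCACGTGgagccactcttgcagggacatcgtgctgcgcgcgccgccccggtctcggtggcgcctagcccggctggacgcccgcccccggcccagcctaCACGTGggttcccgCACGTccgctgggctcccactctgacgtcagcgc
Aldoc, chr11:78322823-78323072, plus strand: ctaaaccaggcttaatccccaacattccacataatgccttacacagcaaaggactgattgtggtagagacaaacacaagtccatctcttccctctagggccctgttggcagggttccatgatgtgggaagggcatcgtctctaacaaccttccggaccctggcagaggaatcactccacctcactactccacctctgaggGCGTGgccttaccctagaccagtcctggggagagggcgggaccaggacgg
Tpi1, chr6:124814159-124814408, minus strand: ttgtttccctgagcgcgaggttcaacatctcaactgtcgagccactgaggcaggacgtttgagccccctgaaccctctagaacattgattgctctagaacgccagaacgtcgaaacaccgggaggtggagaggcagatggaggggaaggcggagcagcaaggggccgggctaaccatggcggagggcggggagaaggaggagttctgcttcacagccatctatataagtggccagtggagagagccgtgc
Pkm, chr9:59656326-59656575, plus strand: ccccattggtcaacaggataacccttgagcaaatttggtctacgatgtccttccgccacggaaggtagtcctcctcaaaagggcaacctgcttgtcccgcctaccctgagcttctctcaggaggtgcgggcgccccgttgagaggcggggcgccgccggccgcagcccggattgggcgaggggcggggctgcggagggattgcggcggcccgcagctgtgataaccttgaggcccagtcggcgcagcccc
The Pgam1 window held 3 separate stretches with a core, the Ldha window 3, of which 2 contain the E-box CACGTG, and the Pgk1 window 2. The Aldoc window held 1. The Tpi1 and Pkm windows shown held 0, as did that of Eno2 and the first listed window of Aldoa, a gene that fell. The other listed windows of Pkm, Ldha and Aldoc held 1 each, that of Ldha without an E-box, as did both other Aldoa windows. Either spelling was found in 13 of the 17 windows of the members (76.5%) and in 38.6% of 32851 windows of all genes, and 6 of 17 held at least 2 stretches against 13.4% of all windows. These counts take in the Eno1 windows, with 1, 2 and 2 stretches, though no change of Eno1 was measured. Both spellings contain CG, and the windows of all genes were not matched to those of the members for GC content. The E-box CACGTG was in 1 of the 17 windows (5.88%) and in 6.02% of all windows. Some windows of a single gene (Aldoa, Eno1) overlap in part and are not independent. A match is a description of the letters and shows no binding. Tpi1 and Pgk1 changed by -0.51 and -0.54, with 0 and 2 stretches in these windows. Slc16a3, whose window is not printed, changed by -0.90 with 2 stretches. The relation of stretches to changes was not tested.

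Aldolases A and C split fructose bisphosphate into triose phosphates; Aldoa encodes the muscle and general form and Aldoc the form known from brain. In its brightest probe set (1416921_x_at) Aldoa was at 12.28, 12.23 and 12.12 in control replicates 1 to 3 and at 11.71, 11.56 and 11.63 in starved replicates 1 to 3. The lowest control array lay 0.41 above the highest starved array. Aldoa fell by 0.57 ± 0.07 (SE, n = 3 per group; limma adjusted p = 0.000357). All 4 Aldoa probe sets fell, by 0.57 to 0.65, but all 4 carry a suffix that marks probes able to match several transcripts.

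Aldoc had the largest change of the members on its responding probe set alone; with each gene's probe sets averaged it changed by -0.93, against -0.997 for Pgam1. The responding probe set (1451461_a_at) was at 6.60, 6.34 and 6.11 in control replicates 1 to 3 and at 4.38, 4.41 and 4.69 in starved replicates 1 to 3. The groups were 1.42 apart at their nearest arrays, more than in any other member's probe set. The change was -1.86 ± 0.13 (SE, n = 3 per group; limma adjusted p = 3.03e-05). The starved mean of 4.49 lies under 5, the level used here as a limit for dim probe sets, so the size of the change is less certain. The other Aldoc probe set, annotated with the same sequence record, lay near background at 2.92 to 3.07 in all 6 arrays and did not pass (-0.0033 ± 0.06, limma adjusted p = 0.973). Aldoc therefore rests on 1 of 2 probe sets.

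The ratio of Aldoc to Aldoa within an array shows whether the isozymes changed alike. The log2 difference of Aldoc minus Aldoa was -5.69, -5.89 and -6.01 in control replicates 1 to 3 and -7.34, -7.16 and -6.94 in starved replicates 1 to 3. It was lower in 3 of 3 starved arrays than in any control array, by 1.28 on average. An exact two-sided permutation test gave p = 0.10, the smallest that 3 against 3 arrays allow, so this difference could not pass a threshold of 0.05. With each gene's probe sets averaged, which takes in the near-background Aldoc set, the difference was 0.33 in the same direction. The matching pair of enolases was not run, since Eno1 was not analysed here.

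Triose phosphate isomerase, encoded by Tpi1, interconverts the products of aldolase. Its brightest probe set was at 12.65, 12.62 and 12.45 in control replicates 1 to 3 and at 12.07, 12.06 and 12.06 in starved replicates 1 to 3. The starved arrays were nearly equal (SD 0.00481), and none reached the lowest control array. Tpi1 fell by 0.51 ± 0.07 (SE, n = 3 per group; limma adjusted p = 0.000587), and its 3 probe sets fell by 0.51 to 0.64.

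The next enzyme, glyceraldehyde phosphate dehydrogenase, is encoded by Gapdh, which is no member and was seen only through the array's own control probe sets and probe sets shared with other genes. Its control probe sets for the 3′ end, middle and 5′ end of the transcript went from means of 13.69, 13.83 and 13.74 in control to 13.54, 13.71 and 13.67 in starved cells. They were not part of the test, and each difference was smaller than the fall of any member that passed.

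Phosphoglycerate kinase, encoded by Pgk1, makes the first ATP of the lower pathway. Its brightest probe set (1417864_at), whose name marks no shared transcripts, was at 12.98, 12.95 and 12.82 in control replicates 1 to 3 and at 12.36, 12.39 and 12.38 in starved replicates 1 to 3. The groups did not overlap. Pgk1 fell by 0.54 ± 0.06 (SE, n = 3 per group; limma adjusted p = 0.000299), and its 3 probe sets were close together, with falls of 0.54 to 0.56.

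Phosphoglycerate mutase, encoded by Pgam1, moves the phosphate of 3-phosphoglycerate to the neighbouring carbon. Pgam1 was at 11.96, 11.96 and 11.77 in control replicates 1 to 3 and at 10.98, 10.87 and 10.85 in starved replicates 1 to 3. Every control array lay at least 0.79 above every starved array. The change of -0.997 ± 0.07 (SE, n = 3 per group; limma adjusted p = 3.52e-05) had a 95% interval of -1.17 to -0.83. That interval lay wholly below those of the Pgk1 (-0.69 to -0.40) and Ldha (-0.74 to -0.47) probe sets of the highest mean. The difference between these changes was not tested. Pgam1 rests on 1 probe set, which can match several transcripts.

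**Figure D1:**
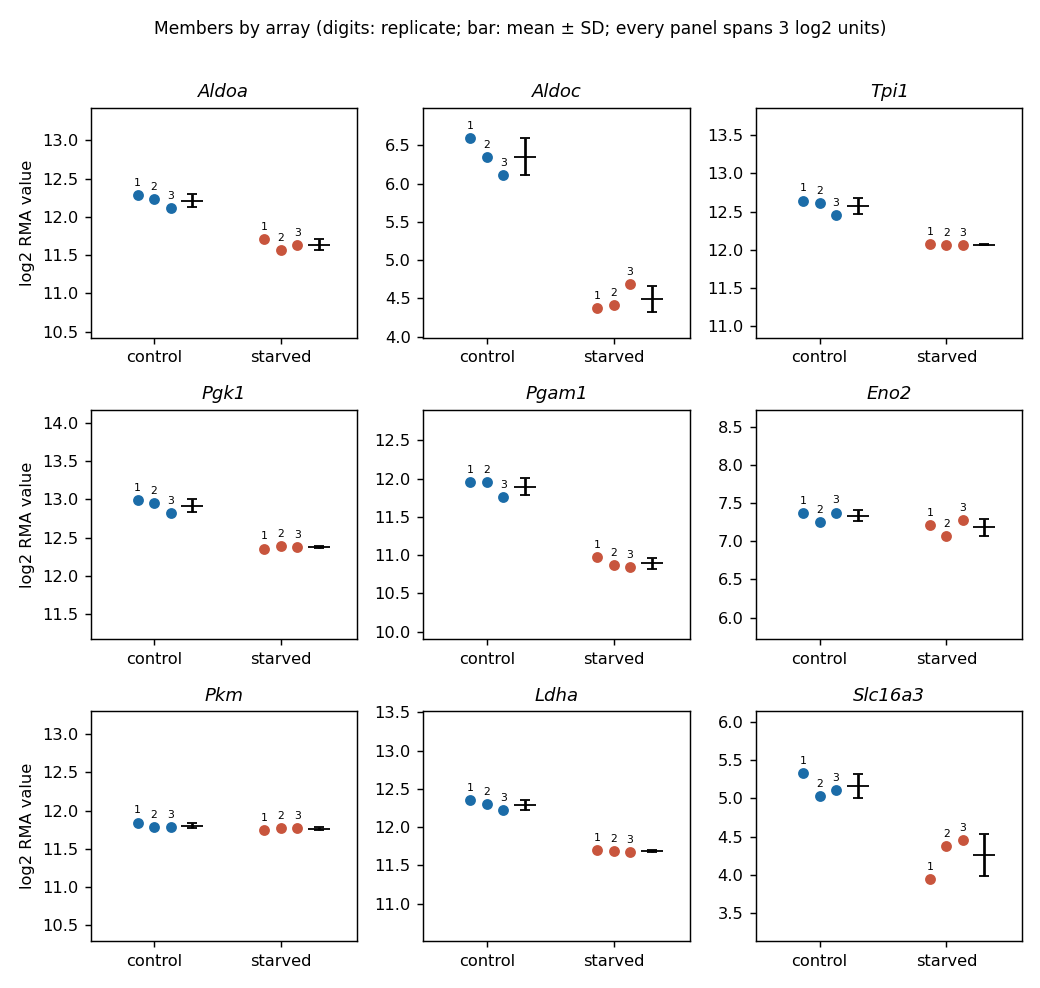
Log2 RMA level of the 9 measured members in each array, for the probe set of the highest mean, with control arrays in blue, starved arrays in red, replicate numbers above the points and mean ± SD (n = 3) beside them. All panels span the same range, so that the drop of Aldoc from 6.35 to 4.49 and the near-level points of Pkm (11.81 and 11.77) can be set side by side.

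Enolase makes phosphoenolpyruvate, and Eno2 encodes its neuronal form. Eno2 was at 7.37, 7.25 and 7.38 in control replicates 1 to 3 and at 7.21, 7.06 and 7.28 in starved replicates 1 to 3. Starved replicate 3 lay above control replicate 2, so the groups overlapped. Eno2 differed by -0.15 ± 0.07 (SE, n = 3 per group) and did not pass (limma adjusted p = 0.161); the 95% interval of -0.32 to 0.02 leaves room for a fall of up to 0.32.

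Pyruvate kinase, encoded by Pkm, carries out the last step to pyruvate and is made in the splice forms M1 and M2, which the single probe set does not separate here. Pkm was at 11.85, 11.79 and 11.78 in control replicates 1 to 3 and at 11.75, 11.77 and 11.78 in starved replicates 1 to 3. All control arrays lay above all starved arrays, but by only 0.00388 at the nearest pair. The difference of -0.04 ± 0.05 (SE, n = 3 per group) did not pass (limma adjusted p = 0.614). Its 95% interval ran from -0.16 to 0.08, and the intervals of all 14 probe sets that passed lay below it; the differences between them were not tested. Counting Pkm, the groups did not overlap, with starved lower, in 15 of the 17 probe sets of the members, and in 25.0% of all probe sets (50.4% in either direction). Over genes this held for 8 of the 9 members and for 26.2% of all genes (52.5% in either direction).

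Ldha encodes the A subunit of lactate dehydrogenase, the form that favours making lactate. It was at 12.35, 12.30 and 12.22 in control replicates 1 to 3 and at 11.70, 11.69 and 11.67 in starved replicates 1 to 3. No array of either group came within 0.52 of the other group. Ldha fell by 0.60 ± 0.06 (SE, n = 3 per group; limma adjusted p = 0.000114), on 1 probe set that can match several transcripts.

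Slc16a3 encodes MCT4, the carrier that exports lactate from cells with high glycolysis. It was at 5.33, 5.03 and 5.11 in control replicates 1 to 3 and at 3.94, 4.37 and 4.46 in starved replicates 1 to 3. The groups did not overlap, yet starved replicate 1 was well below the other starved arrays. Slc16a3 fell by 0.90 ± 0.14 (SE, n = 3 per group; limma adjusted p = 0.00139), with a 95% interval of -1.22 to -0.58. Its starved mean of 4.26 is under the limit of 5 and its control mean of 5.16 just above it, so the size of this fall is less certain than those of the bright members.

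**Figure D2:**
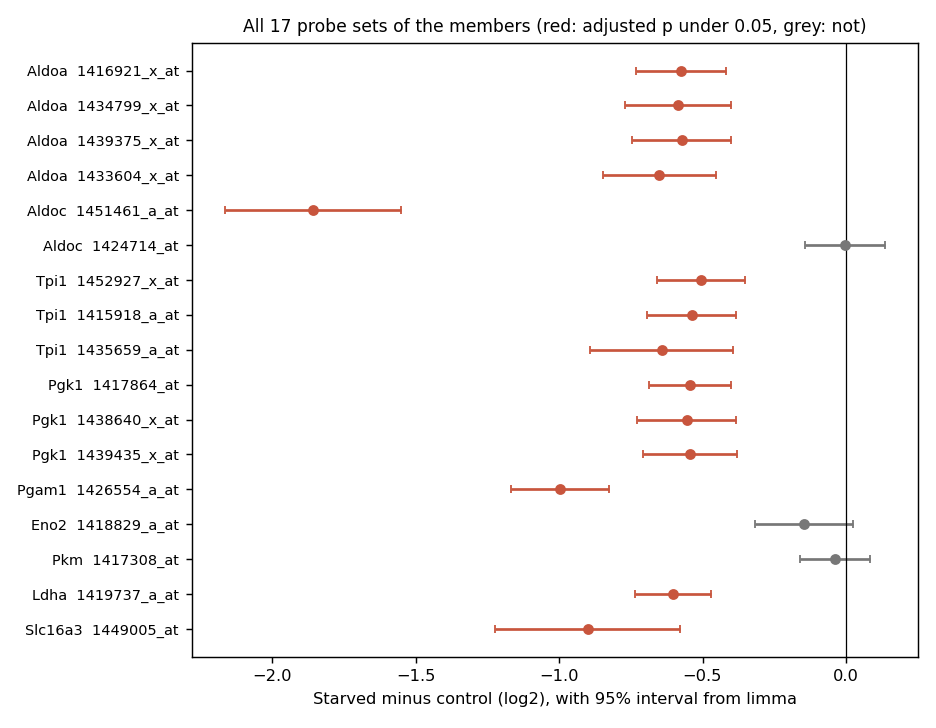
Starved minus control (log2) with the 95% interval of limma for all 17 probe sets of the members, in pathway order; red marks an adjusted p under 0.05. Most points that passed lie between -0.65 and -0.51, with Aldoc at -1.86, Pgam1 at -0.997 and Slc16a3 at -0.90 farther out, while the second Aldoc probe set, Eno2 and Pkm have intervals that take in 0.

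The members also varied together within the control group. Control replicate 3 was the lowest control array in 15 of the 17 probe sets and control replicate 1 the highest in 12. Several of these probe sets read the same gene, and by gene each held in 7 of the 9 members. The share of all probe sets with this order was not counted, so it is not known to be particular to the members. With each gene set to 0 at its 6-array mean, the 9 members averaged 0.44, 0.34 and 0.26 in control replicates 1 to 3 and -0.37, -0.36 and -0.29 in starved replicates 1 to 3. The same average over all 12393 genes stayed between -0.00870 and 0.00602 in the 6 arrays. RMA gives all arrays a common distribution, so this average is near 0 by design and is no yardstick for the members. Without control replicate 3 all 14 calls held and the falls were larger, for instance 1.06 for Pgam1, 1.98 for Aldoc and 0.64 for Ldha. Since that array was mostly the lowest control array, larger falls without it follow by arithmetic.

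**Figure D3:**
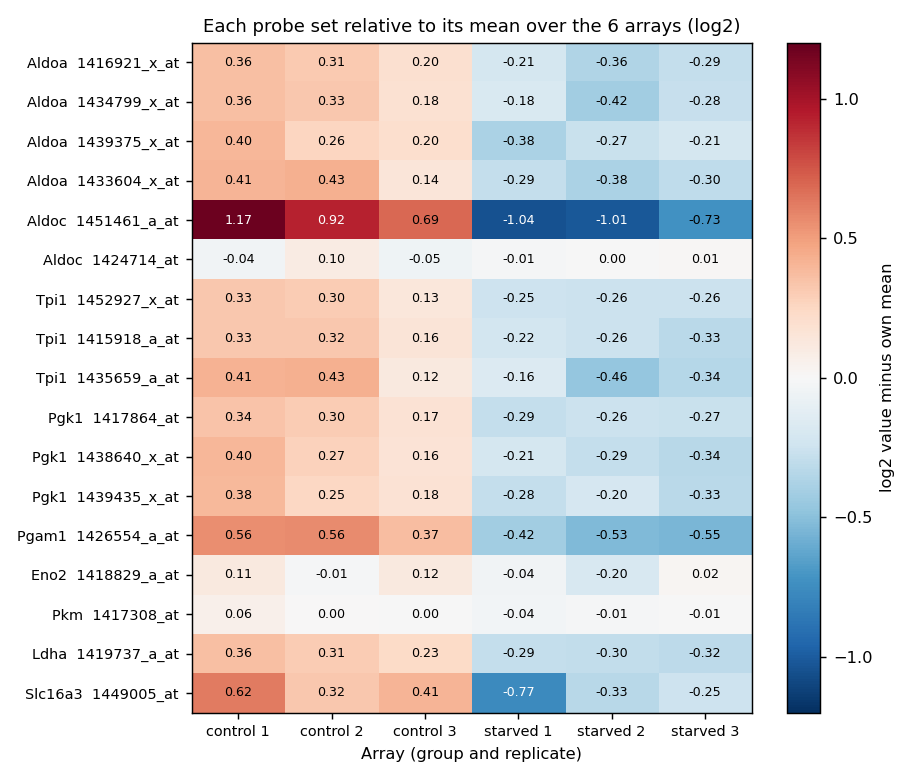
Each of the 17 probe sets in each array as its log2 value minus its own mean over the 6 arrays, with red above and blue below that mean. The 14 probe sets that passed are above their mean in all 3 control arrays and below it in all 3 starved arrays, and control replicate 3 is the palest control column for most of them.

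The genes whose pattern over the 6 arrays was most like the mean of the standardised member profiles were Sdc4 (Pearson r = 0.9993), Hps4 (0.9988), Pdk1 (0.997), Smim3 (0.996) and Lamtor3 (0.995), out of 8644 candidate genes with a mean of at least 5. These values describe 6 arrays that share the group difference, and 36 genes reached 0.99. Pdk1, which encodes a kinase that shuts pyruvate dehydrogenase, fell by 1.27 ± 0.11. Among the members, r with the mean of the other members was 0.94 to 0.995 for the 7 genes that passed, 0.76 for Pkm and 0.69 for Eno2. These r values share the group difference that set the calls, so they are no separate evidence that the members varied together.

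Upstream of aldolase, 5 of 10 measured genes of glucose uptake and upper glycolysis fell and 1 rose, with a median change of -0.16. Of all genes 20.1% were called lower and 20.8% higher, shares to set beside this and the list counts below. The hexokinase gene Hk2 (-2.28 ± 0.08) and the glucose transporter gene Slc2a1 (-1.79 ± 0.10) fell, as did the liver-type phosphofructokinase gene Pfkl (-1.33 ± 0.10). Pfkfb3, whose product makes an activator of phosphofructokinase, fell by 0.61 ± 0.14, in 1 of its 2 probe sets. The platelet-type gene Pfkp rose by 0.42 ± 0.08, in both of its probe sets. Hk1, another hexokinase gene, also fell (-0.19 ± 0.06), in 1 of its 2 probe sets; with both averaged the change was -0.05 (adjusted p = 0.441). Hk1 passed without control replicate 3 but not without each of the other 5 arrays (adjusted p 0.105 to 0.146), with the replicate block (0.0828) or without moderation (0.0742).

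Of 9 other measured genes listed as lower glycolysis enzymes and isozymes 3 fell and 0 rose, with a median of -0.14. The list takes in Pgam5, which encodes no enzyme of glycolysis and did not pass (-0.09 ± 0.06, limma adjusted p = 0.276). The 3 that fell were the muscle enolase gene Eno3 (-0.45 ± 0.07), the muscle mutase gene Pgam2 (-0.39 ± 0.09) and Ldhb (-0.42 ± 0.06). Ldhb encodes the B subunit of lactate dehydrogenase and fell in all 4 of its probe sets. Ldhb was at 11.25, 11.21 and 11.25 in control replicates 1 to 3 and at 10.89, 10.84 and 10.73 in starved replicates 1 to 3. Ldha and Ldhb were thus both lower in every starved array than in any control array. Ldhc, another lactate dehydrogenase subunit gene, was dim, overlapped between the groups and did not pass (-0.14 ± 0.13, limma adjusted p = 0.461). Without control replicate 3, 5 of these 9 genes fell. Without moderation, the step by which limma shares the spread between probe sets, Pgam2 (adjusted p = 0.0617) and, of the upper list, Pfkfb3 (0.0714) did not pass.

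Of 8 other measured monocarboxylate carriers and their chaperones 5 fell and 0 rose, with a median of -0.40. Slc16a1 encodes MCT1, the widely expressed lactate carrier. It was at 10.76, 10.82 and 10.72 in control replicates 1 to 3 and at 9.91, 9.51 and 9.86 in starved replicates 1 to 3, a fall of 1.01 ± 0.10 (limma adjusted p = 0.000185). Its levels lay far above the limit for dim probe sets, unlike those of Slc16a3 (-0.90 ± 0.14); the 2 changes were not tested against each other. Slc16a4 fell by 0.90 ± 0.08. The genes of the chaperones that bring these carriers to the membrane fell as well, Emb by 0.83 ± 0.05 and Bsg, which encodes basigin, by 0.44 ± 0.06. Slc16a7 also fell (-0.35 ± 0.10), but not without control replicate 2 or 3 or starved replicate 2 or 3 (adjusted p 0.0609 to 0.0914). Nor did Slc16a7 pass with the replicate block (limma adjusted p = 0.0562) or without moderation (0.116).

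**Figure D4:**
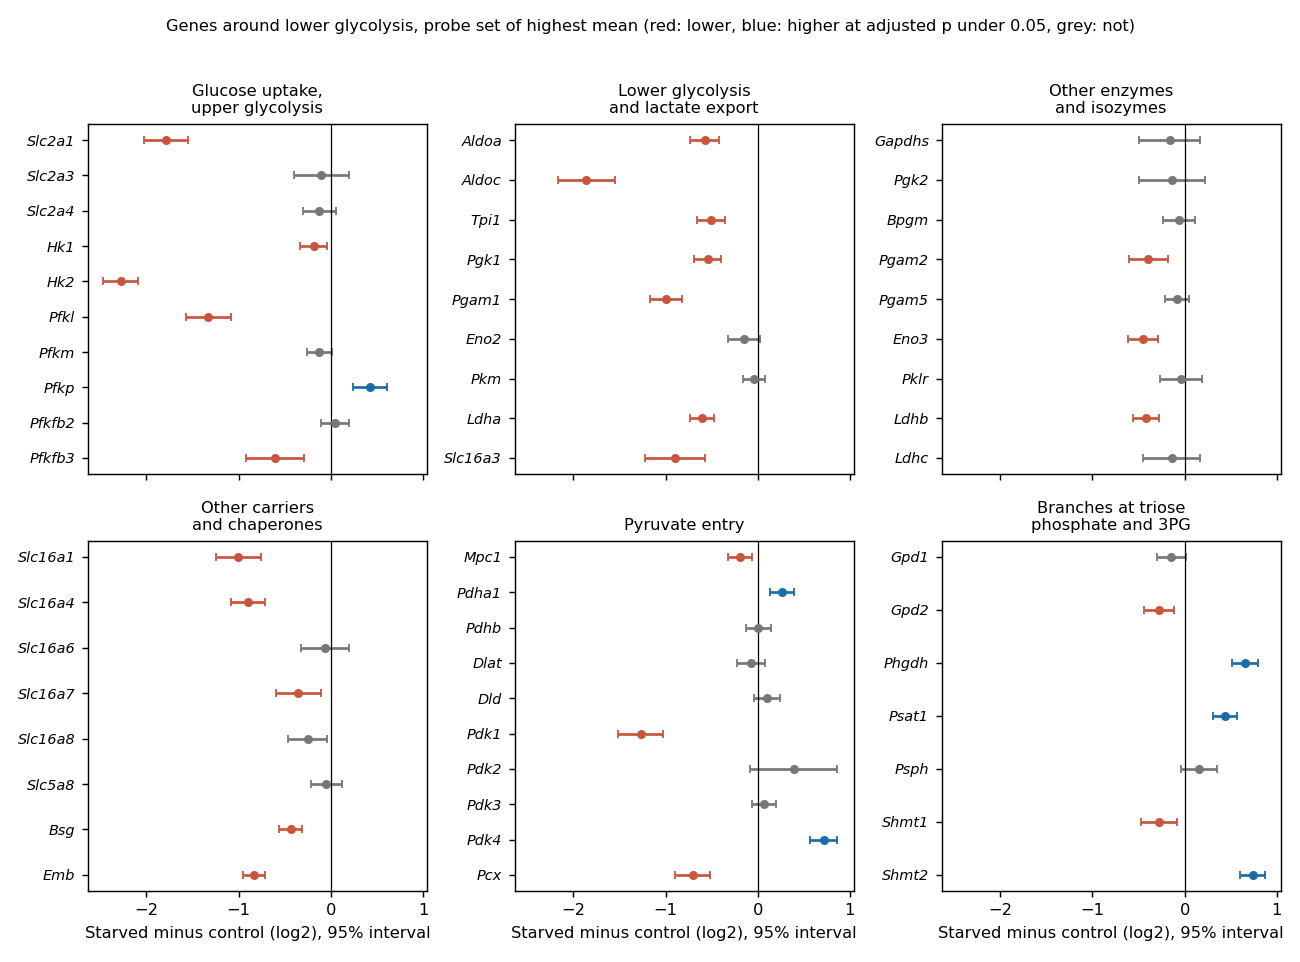
Starved minus control (log2) with the 95% interval for the members and for 5 lists of neighbouring genes, by the probe set of the highest mean; red marks genes called lower, blue genes called higher and grey the rest. The lists of carriers and of lower enzymes hold no blue point, while Pfkp (0.42), Pdk4 (0.71), Phgdh (0.65) and Shmt2 (0.74) lie to the right of 0.

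Where pyruvate enters the mitochondrion, 3 of 10 measured genes fell and 2 rose, against 20.1% and 20.8% of all genes. The median was 0.04. Besides Pdk1, the pyruvate carboxylase gene Pcx fell by 0.71 ± 0.08. Pdk4, which encodes another kinase of pyruvate dehydrogenase, rose by 0.71 ± 0.06 and Pdha1, which encodes a catalytic subunit of that enzyme, by 0.27 ± 0.06. The pyruvate carrier gene Mpc1 fell by 0.19 ± 0.06, but without each array other than starved replicate 1 it did not pass (adjusted p 0.0525 to 0.103). Nor did Mpc1 pass with the replicate block (limma adjusted p = 0.0600).

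At the branch points of triose phosphate and 3-phosphoglycerate, 2 of 7 measured genes fell and 3 rose (20.1% and 20.8% of all genes). The median was 0.16. The genes that rose belong to the route from 3-phosphoglycerate to serine and glycine. Phgdh, its first enzyme, was at 11.36, 11.27 and 11.41 in control replicates 1 to 3 and at 12.04, 11.95 and 12.02 in starved replicates 1 to 3. It rose by 0.65 ± 0.06 (limma adjusted p = 0.000113), Psat1 rose by 0.44 ± 0.06 and the mitochondrial hydroxymethyltransferase gene Shmt2 by 0.74 ± 0.06. Gpd2, the mitochondrial glycerol phosphate dehydrogenase gene, fell by 0.28 ± 0.07. The cytosolic counterpart of Shmt2, Shmt1, fell by 0.28 ± 0.08, but not without any single control array or starved replicate 2 (adjusted p 0.0507 to 0.0876). Nor did Shmt1 pass without moderation (adjusted p = 0.0966) or with its probe sets averaged (limma adjusted p = 0.0601). Pgam1 and Phgdh, whose enzymes use the same metabolite, changed in opposite directions. The probe sets read here for Pgam1, Phgdh, Psat1 and Shmt2 can all match several transcripts. Of these genes only Shmt2 has a probe set whose name marks no shared transcripts, and it rose by 0.92 ± 0.07 (limma adjusted p = 3.74e-05).

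Among HIF1, its regulators and its targets outside glycolysis, 13 of 19 measured genes fell and 1 rose, with a median of -0.57, close to that of the members. Without moderation 11 of the 19 fell and 1 rose. Hif1a, which encodes the regulated subunit, was at 11.97, 12.04 and 11.90 in control replicates 1 to 3 and at 11.51, 11.38 and 11.25 in starved replicates 1 to 3. It fell by 0.59 ± 0.08 (limma adjusted p = 0.000612), in 3 of its 4 probe sets. The prolyl hydroxylase gene Egln1 (-1.48 ± 0.11), the peptide hormone gene Adm (-1.48 ± 0.11), the growth factor gene Vegfa (-1.40 ± 0.14) and Ddit4 (-1.13 ± 0.08), which encodes an inhibitor of mTORC1 signalling, fell the most. The gene that rose was Arnt, which encodes the partner subunit of HIF1, on a probe set that can match several transcripts; its unshared probe set did not pass (0.16 ± 0.07, limma adjusted p = 0.0995). No gene of this list is a member, and no test of the lists against each other was made.

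All 4 factors known to set the splicing of Pkm passed on their brightest probe sets, in both directions. Ptbp1 rose by 0.56 ± 0.06 and Hnrnpa1 by 0.40 ± 0.06. Srsf3 fell by 0.90 ± 0.07 in its brightest probe set, with 5 of its 6 probe sets lower and 1 higher. Hnrnpa2b1 fell by 0.18 ± 0.05, in 1 of its 4 probe sets. It did not pass without control replicate 1 or 2 or starved replicate 2 or 3 (limma adjusted p 0.0547 to 0.0700). Nor did it with the replicate block (0.0575). With its probe sets averaged the change was 0.0073 (limma adjusted p = 0.939). Its unshared probe set went the other way and did not pass (0.27 ± 0.10, limma adjusted p = 0.0647).

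The labelled cell type was set against markers. Of 8 fibroblast markers 7 had control means above 5, up to 14.02 for the collagen gene Col1a2, and Thy1 was at 4.80. These markers moved both ways in starved cells: Pdgfrb (-0.81 ± 0.07) and Pdgfra (-0.28 ± 0.06) fell, and Col1a1 (0.57 ± 0.06), Vim (0.25 ± 0.05) and Fn1 (0.23 ± 0.06) rose. Vim rose in 1 of its 3 probe sets and Fn1 in 1 of its 2. Col1a2 did not pass on its brightest probe set (0.14 ± 0.05, limma adjusted p = 0.0609). Its unshared probe set rose (0.48 ± 0.06, limma adjusted p = 0.000402). Markers of leukocytes, epithelium and endothelium were mostly dim, with both group means under 5 in 5 of 7, 4 of 5 and 4 of 4 genes, as were 3 of 7 muscle markers and 5 of 8 neuron and glia markers. In each of these lists but the last 1 gene rose and 0 fell: Cd68 (0.43 ± 0.06), Cdh1 (0.50 ± 0.08), Pecam1 (0.24 ± 0.08) and the muscle gene Acta1 (0.71 ± 0.20). Aldoc and Eno2 are known as genes of neural tissue, and of 8 neuron and glia markers 2 rose (Map2 and Tubb3) and 0 fell; the mean log2 level of that list was 4.46 to 4.53 in control and 4.68 to 4.71 in starved arrays. The part of these markers in the results was not tested. In RNA of whole cultures fewer cells of a type and less RNA per cell cannot be told apart. As a sign of RNA quality, the 3′ minus 5′ difference of Gapdh was -0.05 in control and -0.13 in starved cells, with no overlap (exact two-sided permutation p = 0.10, the smallest possible), and that of Actb was 0.05 in both (p = 0.70). The part of RNA quality in the members' falls was not tested.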

How the data were processed

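Biotin-labelled cRNA from total RNA was measured on 6 Affymetrix mouse arrays, 3 in each group. The deposited values are log2 levels of probe sets that the authors computed with RMA (affy), per the submitters' processing notes, with no version named. RMA subtracts background, quantile normalizes and summarises the probes of a set, and so hides any change shared by most transcripts; array medians were 6.74 to 6.78. There are no detection calls; probe sets under 5 were treated as dim. The number of arrays limits the precision.

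Of 22690 probe sets 64 array controls were set aside. Platform annotation named 1 gene for 20380 probe sets, several for 691 and none for 1555; names went through Entrez identifiers to RefSeq symbols, with 29 unmatched identifiers keeping the annotation's name. Groups came from the titles, which call the arrays biological replicates without naming separate cultures, so p-values reflect only how these samples vary, which may be technical. limma 3.58.1 (R 4.3.3, lmFit and eBayes, two-sided, no covariate) was fitted to all 22626 probe sets, adjusted by Benjamini-Hochberg, threshold 0.05. It was tested on simulated data. The isozyme ratio and transcript-end differences had exact permutation tests. The main fit did not pair arrays by replicate number.

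Members and lists were chosen with earlier results of these data known. All members are named; of each other list, up to 4 genes past the threshold with the largest change, a fixed set of further genes, and the 5 genes most like the members. Of that fixed set Gpi1 was not analysed here and Gapdh only by array control probe sets. Hk1, Slc16a7 and single markers were named after their values were seen. Alternatives covered dim probe sets, scaling, moderation, array weights, probe sets that can match several transcripts, gene means, stricter limits, the replicate block and each array left out. Figures used matplotlib 3.10.9.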

Additional observations from a re-analysis of the deposited data

How the results depend on the processing

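All 14 probe sets of the members that passed kept direction and call under a second quantile normalization, median centring, array weights, no moderation, robust moderation with an intensity trend, a threshold of 0.01 and each array left out; without dim probe sets 13 were left, since that of Slc16a3 was not tested. The count of member genes called lower was 7 in all of these but the last, where it was 6, and 7 when a gene's probe sets were averaged. With only probe sets whose names mark no shared transcripts, 2 of the members' probe sets and 2 genes, Pgk1 and Slc16a3, were called lower. Only 4 members have such a probe set. With a change of at least 1 required, 1 probe set and 1 gene, Aldoc, remained. Of all 22626 probe sets 8933 were called (39.5%), 689 with a change of at least 1 required and 7691 to 8394 with an array left out. Without shared probe sets 5716 probe sets were called, and over gene means 5206 genes. Those fits tested fewer features, so their counts do not show a lower rate of calls.

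With the replicate number as a block 8168 probe sets were called, 14 of them of the members, and no member changed its call. Correlations of same-numbered arrays' deviations over all probe sets were -0.09, 0.01 and -0.01, and those of differently numbered arrays -0.08 to 0.09. With 3 arrays per group these values cannot show whether same-numbered arrays shared a culture or day.

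The near-background Aldoc probe set had no stable sign: 0.0098 after a second quantile normalization, and from -0.0284 to 0.0449 with an array left out, above 0 without control replicate 2 or starved replicate 1 (0.0024). The Aldoc to Aldoa difference ran from -1.38 to -1.19 with an array left out. The end difference of Gapdh ran from -0.11 to -0.05, and that of Actb from -0.0189 to 0.0061, with reversals without control replicate 1 or starved replicate 3.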
